A study of Mus musculus with 16 samples.

Results

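Cytosolic ribosomal protein genes encode the protein parts of the ribosome that translates messages in the cytoplasm: the small (40S) subunit, which reads the message, and the large (60S) subunit, which joins amino acids. Their messages are among the most abundant of a cell, and most begin with a pyrimidine tract, the 5′ terminal oligopyrimidine (TOP) motif, through which the growth kinase mTOR controls their translation. Proliferating and activated leukocytes are known to make more ribosomes than resting ones. The genes were chosen by name: Rpl or Rps followed directly by a number, with an optional a, x or l, together with Rplp0, Rplp1, Rplp2 and Rpsa, and without the Rps6k kinases. Of 20659 gene symbols on the array, 82 met this rule, 32 for the 40S and 50 for the 60S subunit. Of these, 81 could be tested, because the only Rplp1 probe was marked as an outlying spot on 1 array.

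The samples were CD11b+ cells, that is, cells bearing the integrin alpha M chain of monocytes, granulocytes and some macrophages, taken from spleen or bone marrow of male mice. The mice were wild type or labelled STAT4-/-, STAT6-/- (transcription factors of cytokine signalling) or HDC-/- (the histamine-forming enzyme), and ate a control diet or a high-fat diet for 3 months. Each of the 16 combinations of 4 genotypes, 2 tissues and 2 diets had 1 array, hybridised with RNA of cells taken from 5 mice, so that no combination was repeated and the number of arrays limits every estimate. Strain, age and the method of cell isolation are not given in the sources used here, nor is whether spleen and marrow came from the same mice. The p-values below measure the spread of genotype-by-diet differences between single pools.

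As a check of the labels, Hdc read 0.98 to 1.92 on the 4 HDC-/- arrays (log2 signal over the array's 75th percentile) and 4.06 to 5.79 on the 11 others whose spot could be used. Stat6 read 2.54 to 3.04 on the STAT6-/- arrays, below wild type (3.44 to 4.14) but within the range of the STAT4-/- arrays. Stat4 itself read 0.41 to 3.51 under the STAT4-/- label, no lower than in wild type (0.17 to 1.33), so these arrays are called STAT4-labelled below. The integrin gene Itgam, which marks the sorted cells, was 1.30 lower in spleen on the log2 scale. The STAT4-labelled high-fat spleen array stood apart in its markers: its mean B cell marker level of -1.14 lay below the other 7 spleen arrays, of which the lowest read 1.12. The HDC-/- control marrow array had the highest B cell marker level in marrow (-0.48), and values without these 2 arrays are given beside the tissue results. Between 60.4% and 85.6% of spots were well above background, with the 4 STAT6-/- and HDC-/- marrow arrays, which share a slide, at the low end (60.4% to 69.1%).

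Promoter sequence was used to see what these genes share besides their names. RefSeq (build GRCm38.p6) gave a window from 250 bases before to 50 bases after the start for 61 of the 82 genes. The TOP motif, here C followed by at least 4 pyrimidines from the annotated first base, was found at the start of 14 of 61 (23.0%), against 3.01% of 27025 genes with a window and 0 of 69 mitochondrial ribosomal protein genes. Where the tract could start up to 10 bases from the annotated start, the shares were 63.9% of the members and 34.4% of all genes, and 44.9% of the mitochondrial ribosomal protein genes (31 of 69). The following stretches run from 60 bases before to 20 bases after the start. They show a gene with a tract that varied least over the arrays (Rps15a), one with a tract that was higher in spleen (Rps18), the gene closest to the members' mean (Rpl35), a gene higher in spleen without the motif at its annotated start (Rps7), and Rpl39 with its paralog Rpl39l, whose levels differed most between genotypes. Capitals mark the TOP tract, and Rps7, Rpl39 and Rpl39l have none at the annotated first base. Each of these genes does have a tract that starts within 10 bases of it.

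Rps15a, chr7:118116128-118116207, minus strand: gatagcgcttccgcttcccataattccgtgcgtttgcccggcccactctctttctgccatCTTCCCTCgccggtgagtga
Rps18, chr17:33955646-33955725, minus strand: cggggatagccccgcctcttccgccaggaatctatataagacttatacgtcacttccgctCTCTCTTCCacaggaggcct
Rpl35, chr2:39005112-39005191, minus strand: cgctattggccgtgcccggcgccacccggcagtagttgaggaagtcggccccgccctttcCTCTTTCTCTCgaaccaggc
Rps7, chr12:28635934-28636013, minus strand: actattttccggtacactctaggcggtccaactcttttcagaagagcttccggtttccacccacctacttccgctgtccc
Rpl39, chrX:37085203-37085282, minus strand: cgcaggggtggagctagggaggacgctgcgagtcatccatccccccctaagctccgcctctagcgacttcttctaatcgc
Rpl39l, chr16:10170168-10170247, plus strand: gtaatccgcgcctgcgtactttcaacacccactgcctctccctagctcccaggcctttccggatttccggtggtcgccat

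Other motifs were counted over the whole windows, on both strands. CCGGAAG, the core bound by ETS factors such as GABPA, was present in 25 of 61 windows (41.0%), against 9.93% of all genes and 37.7% of mitochondrial ribosomal protein genes. AAGATGG, the YY1 core, was present in 14.8% against 7.28% of all and 18.8% of mitochondrial ribosomal protein genes. The E-box CACGTG, bound by MYC and USF factors, was present in 9.84% against 8.09% and 7.25%. TATAAA on the gene's strand, between 40 and 15 bases before the start, was found in none of the 61 and in 2.41% of all genes. The base content also differed, with a mean GC content of 57.1% in the members' windows and 53.6% over all genes.

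The ribosomal protein genes had bright and steady signals. A total of 80 of 81 were well above background on all 16 arrays, the exception being Rpl10l, a paralog known from testis (8 arrays), and 76 lay above the array's 75th percentile on every array. The median SD over the 16 arrays was 0.27 on the log2 scale, against 0.69 over all 28761 features tested, and 78 of 81 genes varied less than that median. The lists were not matched on brightness. Rps15a (SD 0.18), Rps14 (0.18), Rpl27a (0.19), Rpl35a (0.19) and Rpl24 (0.20) varied least. At its brightest probe Rps15a ranged from 5.63 to 6.16 in spleen and from 5.60 to 5.97 in marrow, so its tissues overlapped almost fully. Its other probes followed the brightest poorly (r = 0.07 and 0.25) and gave spleen minus marrow changes of 0.54 and -0.44. Other probes gave 0.67 and 0.13 for Rpl27a, 0.31 for Rpl35a and 0.18 for Rpl24. The steadiness of these genes is thus that of their brightest probes. The genes that varied most were 4 paralogs and a core gene: Rpl39l (SD 1.16), Rpl10l (1.03), Rps4l (0.89), Rpl3l (0.55) and Rps19 (0.51).

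The genes moved together from array to array. The median Pearson correlation of a gene with the mean of the other members over 16 arrays was 0.64, and 58 of 81 were above 0.5; all points share the array's scaling. Rpl35 followed the mean most closely (r = 0.98), then Rpl36 (0.91) and Rpl27 (0.90). Among the lowest were Rpl3l (-0.19), Rps19 (0.08), Rpl18 (0.12) and Rps18 (0.14), each of which was called in the tissue comparison described next.

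Spleen and marrow differed in 10 of the 81 genes, 8 higher and 2 lower in spleen, at an adjusted p under 0.05 (limma, Benjamini-Hochberg over all features). Over all features 32.0% were called (14.9% higher and 17.1% lower), so the members' share lay below the background. The higher genes were 4 of the 40S subunit (Rps19, Rps2, Rps18 and Rps7) and 4 of the 60S subunit (among them Rpl19, Rpl18 and Rpl12), by 1.40-fold to 1.79-fold. The lower ones were the paralogs Rpl3l and Rps4l. The median change of the 81 genes was 0.07 (spleen minus marrow), against -0.06 over all features, with a median of -0.03 for the 40S and 0.09 for the 60S genes. In 70 of 81 the change was under 0.5 in size, and 1 passed 2-fold, where 18.6% of all features did. With a median SE of 0.17, smaller differences than these were not detectable in most of the genes. Over the matched pairs the members' median was uneven, from -0.26 in STAT6-/- to 0.44 in STAT4-labelled mice, both on the high-fat diet. In wild-type mice it was -0.24 (control) and -0.14 (high-fat diet), where the median of all features was -0.82 and -0.62. The remaining pairs had positive members' medians.

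**Figure D1:**
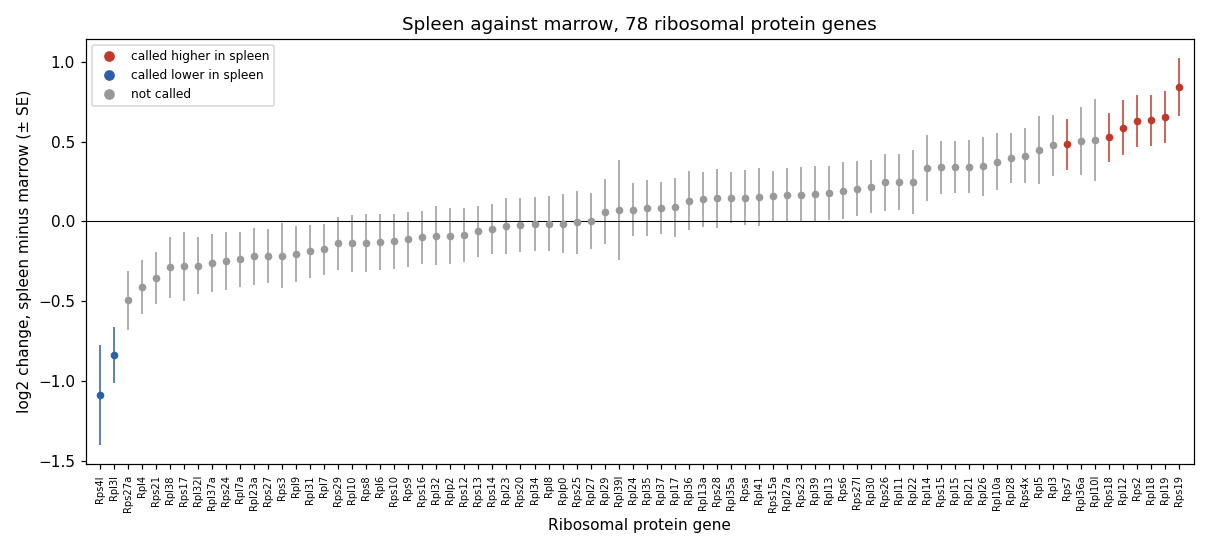
Change of each of 78 of the 81 ribosomal protein genes between spleen and marrow (y axis, log2, spleen minus marrow; bars are SE from limma; genes ordered by change on the x axis). Rps19 (0.84) is at the high end and Rpl3l (-0.84) and Rps4l (-1.08) at the low end; 7 genes drawn are called higher (red) and 2 lower (blue).

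Rps19, a 40S protein needed to process the small-subunit RNA and mutated in Diamond-Blackfan anaemia, read 3.79, 4.56 and 4.93 in spleen (lowest, median and highest) and 3.30, 3.68 and 3.83 in marrow. Only the STAT4-labelled high-fat spleen array (3.79) fell within the marrow range. The change was 0.84 (SE 0.18, adjusted p 0.0075, higher in 8 of 8 matched pairs), the largest rise of the 81. Between the spleen and marrow slides of wild-type and STAT4-labelled arrays it was 0.69, and between those of STAT6-/- and HDC-/- arrays 0.99. Each slide held 1 tissue, so neither value separates slide from tissue. Fitted without the 2 arrays that stood apart, the change of Rps19 was 0.95.

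Rps2, a 40S protein near the messenger entry site, read 5.27, 5.63 and 5.89 in spleen and 4.73, 4.91 and 5.26 in marrow, with no overlap between the tissues. Its change was 0.63 (SE 0.16, adjusted p 0.017), with 0.69 without the 2 arrays, and a second probe of the gene gave 0.52. Rps7 read 5.36, 5.61 and 5.82 in spleen and 5.00, 5.13 and 5.24 in marrow, again without overlap, for a change of 0.48 (SE 0.16, adjusted p 0.0424). The call of Rps7 was lost whichever of the 16 arrays was left out (changes of 0.42 to 0.54, adjusted p 0.0545 to 0.112), and also without the 2 arrays (0.50, adjusted p 0.0662). Rps18, whose TOP tract is shown above, read 4.94, 5.22 and 5.52 in spleen and 4.51, 4.62 and 5.04 in marrow. It changed by 0.53 (SE 0.15, adjusted p 0.0268), with 0.54 without the 2 arrays and 0.41 at its second probe, and 1 marrow array, HDC-/- on the high-fat diet, reached into the spleen range.

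Among the 60S genes, Rpl12, which sits at the base of the stalk that recruits elongation factors, read 5.67, 5.93 and 6.10 in spleen and 4.80, 5.38 and 5.66 in marrow. The tissues only just failed to overlap, and the change was 0.59 (SE 0.17, adjusted p 0.0282), with 0.64 without the 2 arrays and 0.77 at its second probe. Only 3 of 81 genes (Rpl12, Rps2 and Rps7) had tissues that did not overlap, close to the 2.57% of all features. Rpl19 read 4.96, 5.51 and 5.78 in spleen and 4.52, 4.84 and 5.03 in marrow, and changed by 0.66 (SE 0.16, adjusted p 0.0134), or 0.69 without the 2 arrays. Rpl18 read 4.34, 4.95 and 5.16 against 3.98, 4.21 and 4.55, and changed by 0.63 (SE 0.16, adjusted p 0.0139), or 0.69 without the 2 arrays. In both genes the STAT4-labelled high-fat spleen array was the lowest of the 8 spleen arrays and lay within the marrow range.

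**Figure D2:**
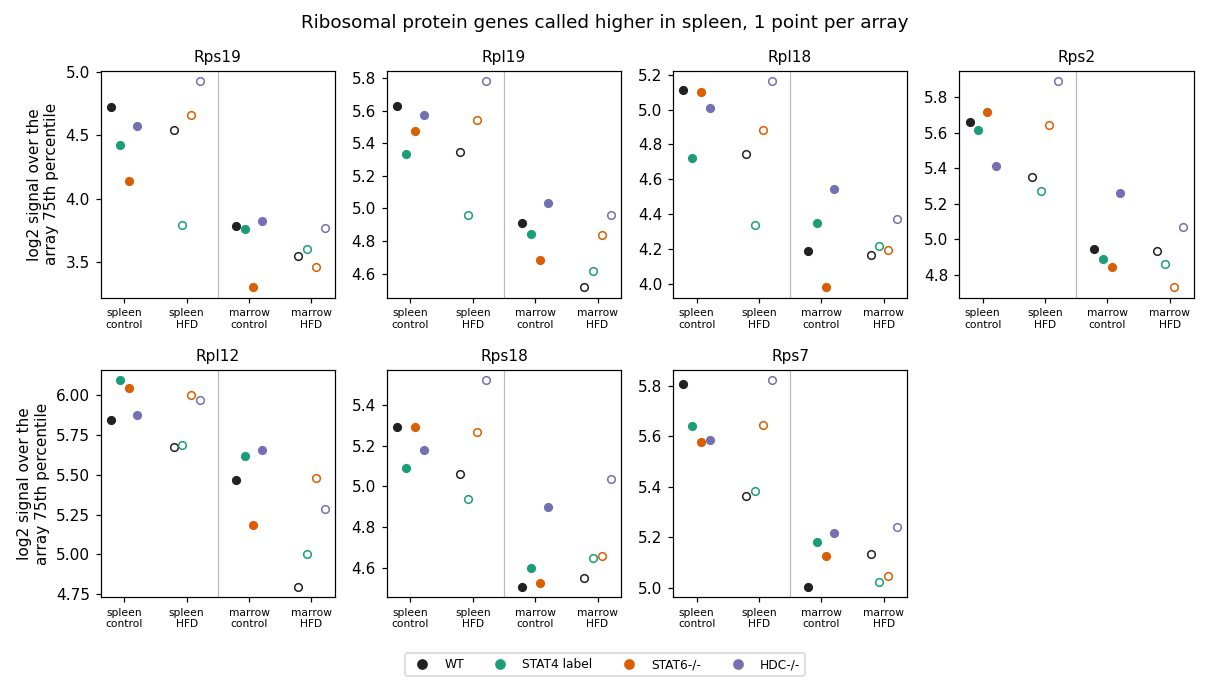
Level on each array (y axis, log2 signal over the array's 75th percentile) of 7 genes called higher in spleen, by tissue and diet (x axis), with colour for genotype and open symbols for the high-fat diet. Spleen points lie above marrow points in Rps2, Rps7 and Rpl12 without overlap; in Rps19, Rpl19 and Rpl18 the STAT4-labelled high-fat spleen array drops into the marrow range.

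Both genes lower in spleen are paralogs, and both read below most other ribosomal protein genes, Rpl3l much further than Rps4l. Rpl3l, a form of the large-subunit protein Rpl3 known from heart and skeletal muscle, read -5.25, -4.88 and -3.86 in spleen and -4.39, -3.99 and -3.63 in marrow. Its change was -0.84 (SE 0.17, adjusted p 0.00656, lower in 8 of 8 pairs), and -0.98 without the 2 arrays. Rpl3 itself read 5.09, 5.55 and 5.93 in spleen and 4.65, 5.08 and 5.40 in marrow. The change of Rpl3 had the opposite sign (0.48, SE 0.19, higher in 8 of 8 pairs) and did not pass the threshold (adjusted p 0.0793). Rps4l, an Rps4x-like locus that RefSeq lists as a non-coding transcript, read -2.42, -1.29 and -0.82 in spleen and -1.81, -0.36 and 0.53 in marrow, for a change of -1.08 (SE 0.31, adjusted p 0.0257, lower in 7 of 8 pairs), and -1.24 without the 2 arrays. The X-linked Rps4x changed by 0.41 (SE 0.17, adjusted p 0.0944). Ribosomal protein genes have many near-identical copies, so a probe may read more than one of them.

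Several other members with well-known roles were not called between tissues. The stalk proteins, which contact elongation factors, changed by -0.01 (Rplp0) and -0.09 (Rplp2), each with SE 0.18. The third, Rplp1, was not tested. It averaged 5.34 ± 0.18 (SD, n = 7) for spleen and in marrow 4.69 ± 0.34 (SD, n = 8) on its usable spots, with overlapping ranges of 5.04 to 5.59 and 4.13 to 5.17. Rps6, the 40S protein phosphorylated downstream of mTOR, changed by 0.19, and Rpsa, also known as a laminin receptor, by 0.15. Other probes of both genes gave more, with 0.39 and 0.54 for Rps6 and 0.37, 0.79 and 0.79 for Rpsa. Rpl5 and Rpl11, which hold the 5S RNA and restrain MDM2 when ribosome assembly fails, changed by 0.45 (adjusted p 0.135) and 0.25 (adjusted p 0.315). Rps27a, made as a fusion with ubiquitin, was next in line on the lower side at -0.49 (SE 0.19, adjusted p 0.0662). Its other probes gave -0.28 and, with 14 arrays well above background, 0.66. Rpl22, known for its part in lymphocyte development, changed by 0.25 and Rpl38, known for translation of Hox messages, by -0.29. Second probes gave 1.24 for Rpl22 and -0.15 for Rpl38. Of the X-linked genes, Rpl10 changed by -0.14, Rpl36a by 0.50 (adjusted p 0.0967) and Rpl39 by 0.17. Other probes gave 0.07 and -0.39 for Rpl10, 0.44 and 0.86 for Rpl36a, and -0.21 and 0.52 for Rpl39. Those of Rplp0 gave 0.05 and -0.21, and that of Rpl11 gave 0.09. Changes at other probes are differences of tissue means and were not tested. Over 75 second probes well above background on all arrays, the median correlation with the brightest probe was 0.46.

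Genes that build ribosomes, and other genes of translation, were read from the same fit. Of 40 ribosome biogenesis genes (assembly factors, RNA-modifying enzymes and polymerase I subunits), 19 were called higher in spleen and 1 (Polr1a) lower, with a median change of 0.58. Examples were the small-subunit processome proteins Rrp9 (1.64, SE 0.26) and Wdr75 (1.64, SE 0.27), Nop16 (1.42, SE 0.24) and nucleostemin, Gnl3 (1.40, SE 0.28). The difference in medians between the lists was not tested. Of 34 translation factors, 8 were higher and 1 lower (median 0.13), and of 19 further messages known to carry a TOP tract, 5 were higher and none lower (median 0.16). Both of these lists hold the elongation factor subunits Eef1g (1.13, SE 0.20) and Eef1d (0.87, SE 0.18). Among 18 genes of MYC and mTOR control, Myc was higher in spleen (2.63, SE 0.32) and Max, Akt1, Mxd1, Eif4ebp1 and Rheb were lower. Mitochondrial ribosomal proteins had 13 higher and 5 lower of 78 (median 0.08). Over all features 32.0% were called, 14.9% higher and 17.1% lower in spleen. The translation factors, further TOP messages and mitochondrial ribosomal proteins were called in smaller shares, and the MYC and mTOR genes in a share near it. None of 7 cytosolic ribosomal proteins outside the name rule, among them Fau and Rack1, was called, with 0 at an unadjusted p under 0.05 (limma). Calls of the biogenesis list fell to 11 without the STAT6-/- high-fat spleen array, 12 without the wild-type high-fat spleen or wild-type control marrow array and 13 without the HDC-/- control spleen array. Those of the translation factors fell to 4 without the STAT4-labelled control marrow array and to 5 without wild-type high-fat spleen or wild-type control marrow. Those of the mitochondrial list fell to 10 without wild-type high-fat spleen and to 11 without STAT4-labelled control spleen, HDC-/- control spleen or wild-type control marrow. The further TOP messages fell to 3 calls without any 1 of 11 arrays. Their count was 9 with quantile scaling, with the percentile over probes above background on all arrays and with a mean-variance trend (8 higher, 1 lower), 8 with normexp and 3 with median scaling. With a covariate for the mean of 3 Y-linked genes, 14 translation factors were called, 9 higher and 5 lower. Without the 2 arrays that stood apart, 27 biogenesis genes, 9 translation factors, 6 further TOP messages and 21 mitochondrial ribosomal proteins were called.

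Markers of other cells moved with tissue as well. All 10 B cell markers were higher in spleen (median 3.52), as were 8 of 9 T cell, 7 of 7 natural killer, 7 of 7 dendritic and 7 of 8 red pulp macrophage markers. All 12 cell cycle genes were lower (median -1.39), as were 7 of 10 mature neutrophil markers. The summed B cell list averaged -1.14 to 2.28 over spleen arrays and -3.04 to -0.48 over marrow arrays. Their part in the differences of ribosomal protein genes was not tested, and in bulk RNA fewer cells of a type and less RNA per cell cannot be told apart. Each slide held 1 tissue, so slide and tissue cannot be told apart either.

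**Figure D3:**
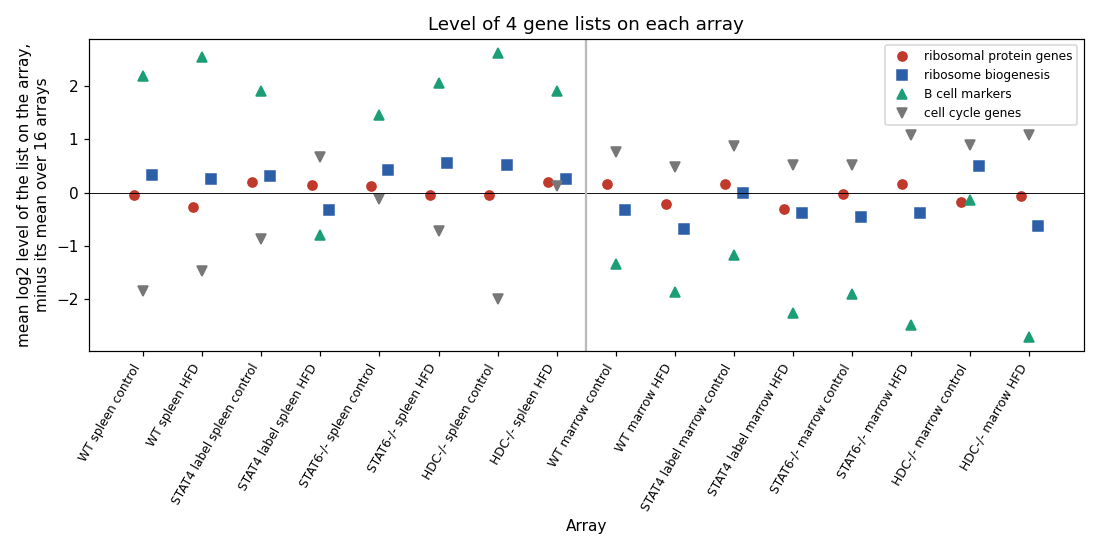
Mean log2 level of 4 gene lists on each of 16 arrays (x axis), minus the list's own mean over the arrays (y axis). Ribosomal protein genes (mean level 4.92 to 5.44) stay near 0 while B cell markers and cell cycle genes separate the tissues, and the STAT4-labelled high-fat spleen array lies within the marrow range of both.

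The number of genes called in the tissue comparison depended on scaling and on single arrays. With quantile scaling it was 28, with 26 higher and 2 lower, and leaving out 1 array gave 4 to 10. It was 4 without wild-type control marrow, and 5 without wild-type control spleen, wild-type high-fat spleen, STAT6-/- high-fat spleen, wild-type high-fat marrow or STAT4-labelled control marrow. It was 6 without STAT4-labelled control spleen or either HDC-/- high-fat array. Without both arrays that stood apart, 8 were called, 6 higher and 2 lower. Leaving out 1 array at a time, Rps19, Rpl19, Rpl18 and Rpl3l kept their calls throughout, and Rps2 lost its call without the wild-type or the STAT4-labelled control marrow array (adjusted p 0.0523 and 0.0503). Rpl12 lost its call without 11 of the 16 arrays, Rps18 without 10 and Rps4l without 9, with adjusted p of at most 0.0777, 0.0695 and 0.0646.

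High-fat feeding changed no ribosomal protein gene past the threshold. Of 81 genes, 0 were called in spleen, in marrow or over both tissues (limma), as were 0 of all 28761 features (0% in each), and at an unadjusted p under 0.05 there were 1, 0 and 0 genes, against 4.53%, 6.04% and 12.6% of all features. The signs leaned one way: 63 of 81 genes read lower on the high-fat diet in spleen, 75 in marrow and 70 over both, where 35.9%, 40.3% and 36.9% of all features did. The median change was -0.07 in spleen, -0.13 in marrow and -0.10 over both, against 0.15, 0.11 and 0.13 for all features. Median SEs of 0.25 within a tissue exceed these medians. Leaving out 1 array at a time, the spleen median ran from -0.17 (without HDC-/- control) to 0.01 (without wild-type control), and the marrow median from -0.22 (without HDC-/- control) to -0.03 (without STAT4-labelled control). No p is given for the list. Markers of other cells moved with diet too: all 9 pro-B and pre-B cell markers read lower in marrow (median -2.49, 8 at an unadjusted p under 0.05). All 7 natural killer markers read lower over both tissues (median -1.34, 5 at that level), and all 5 primary granule genes of neutrophils read higher in spleen (median 1.73, 5 at that level). The pairs (control, then high-fat) were uneven. Pro-B and pre-B means in marrow were 1.80 and -4.17 in HDC-/- but -1.49 and -2.07 in wild-type mice. Natural killer means were -1.26 and -4.40 in HDC-/- marrow and -0.77 and -3.57 in STAT4-labelled spleen. They were higher on the high-fat diet in both STAT6-/- tissues. Primary granule means in spleen were 0.21 and 5.26 in HDC-/- but 4.35 and 3.76 in STAT6-/- mice. The 1.80, -1.26 and -3.57 come from the 2 arrays that stood apart. None of these markers was called (limma), and their part in the values of ribosomal protein genes was not tested.

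The pairs did not go one way. The median over the 81 genes was -0.29 in wild-type spleen (72 genes lower) and -0.38 in wild-type marrow (74 lower), and -0.44 in STAT4-labelled marrow (78 lower). It was -0.17 in STAT6-/- spleen and 0.00 in STAT4-labelled spleen, where 41 genes were higher and 40 lower. In HDC-/- mice the sign was positive in both tissues, 0.26 in spleen (72 genes higher) and 0.14 in marrow (58 higher), as in STAT6-/- marrow (0.16, 70 higher). Each value rests on 1 pair of arrays, and the genes share those arrays, so the differences between genotypes were not tested.

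**Figure D4:**
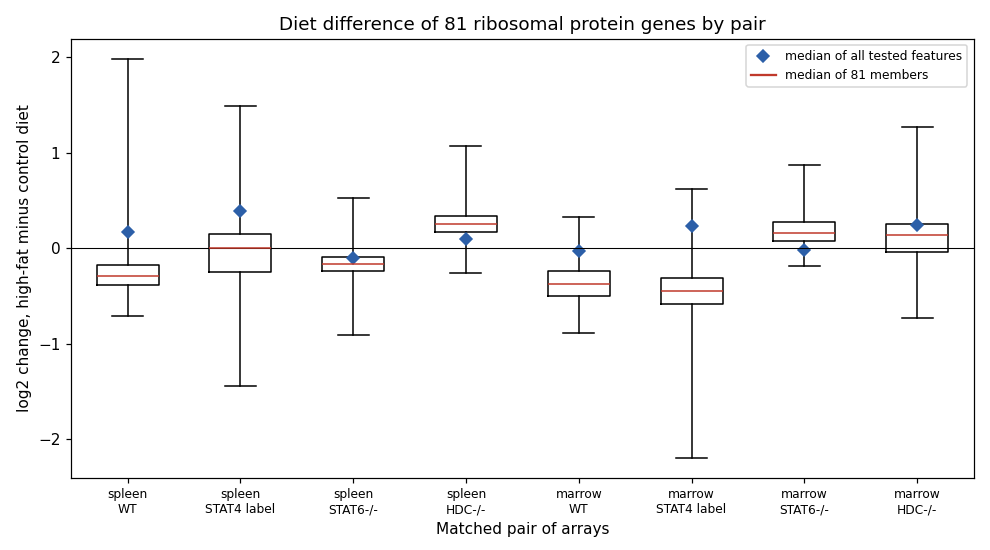
Change on the high-fat diet in each of 8 matched pairs of arrays (x axis) for 81 ribosomal protein genes (y axis, log2, high-fat minus control; box, quartiles; whiskers, full range; red line, median; blue diamond, median of all tested features). The medians run from -0.44 in STAT4-labelled marrow to 0.26 in HDC-/- spleen.

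No single gene passed the threshold for diet. The smallest p-values in spleen belonged to Rpl10l (0.87, SE 0.36, adjusted p 0.771), Rpl3l (0.50, SE 0.25, higher in 4 of 4 pairs) and Rpl32l (0.50, SE 0.25, 4 of 4) on the higher side, all paralogs. Rpl10l was not well above background on every array. Its difference was 1.98 in the wild-type and 1.49 in the STAT4-labelled pair, but -0.14 in STAT6-/- and 0.14 in HDC-/- mice. In Rpl3l and Rpl32l much of the change lay in 1 pair. The difference of Rpl3l was 1.13 in the STAT4-labelled pair, against 0.51 in wild type, 0.15 in STAT6-/- and 0.22 in HDC-/- mice, and fitted without the STAT4-labelled high-fat array it was 0.29 (SE 0.26). That of Rpl32l was 1.17 in the wild-type pair, against 0.33 in STAT4-labelled, 0.22 in STAT6-/- and 0.29 in HDC-/- mice, and fitted without the wild-type control array it was 0.28 (SE 0.28). On the lower side were Rps25, a 40S protein known for its part in internal initiation (-0.55, SE 0.28, 4 of 4 lower), Rps4x (-0.29, SE 0.24, 4 of 4 lower) and Rpl18 (-0.20, SE 0.22). In marrow the lower side was led by Rpl12 (-0.34, SE 0.25), Rps27l, a p53-induced paralog of Rps27 (-0.32, SE 0.24), and Rpl5 (-0.39, SE 0.30), with adjusted p of 0.708 to 0.716. Rpl28 (0.17) and Rpl3l (0.17) were among the smallest p on the higher side there. The difference of the diet effect between tissues gave 0 calls (limma), with 0 genes at an unadjusted p under 0.05 and every adjusted p near 1. Of the ribosome biogenesis genes, 36 of 40 read lower on the high-fat diet over both tissues (median -0.33) and 0 were called, with 6 at an unadjusted p under 0.05.

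Genotype changed no ribosomal protein gene past the threshold either. None of 81 was called for STAT4-labelled (0.0174% of all features called), STAT6-/- (0.0313%) or HDC-/- (0.153%) against wild type, or for HDC-/- against STAT6-/- (0.0104%), all by limma. At an unadjusted p under 0.05 there were 2, 1, 2 and 0 genes, against 9.93%, 6.85%, 10.9% and 6.45% of all features. The median changes were 0.10, 0.11, 0.05 and -0.10 in that order, against 0.20, -0.01, -0.07 and -0.09 over all features, and the first 3 comparisons share the wild-type arrays. Wild type shared slides with the STAT4-labelled arrays only, so for STAT6-/- and HDC-/- against wild type slide and genotype cannot be told apart. Markers of other cells moved with genotype as well. Against wild type, all 7 natural killer markers read lower in STAT4-labelled mice (median -1.50, 5 at an unadjusted p under 0.05). All 6 erythroid markers read higher in STAT6-/- (median 1.69, 4 at that level), and all 8 red pulp macrophage markers in HDC-/- mice (median 1.29, 3 at that level). The natural killer fall lay in spleen, where the STAT4-labelled list mean was -0.77 and -3.57 (control and high-fat diet), against 1.64 and 1.44 in wild type. The -3.57 comes from an array that stood apart. In marrow the STAT4-labelled mean was higher than wild type, at -2.26 and -3.27 against -3.12 and -3.46. Red pulp macrophage means in HDC-/- marrow were 1.89 and -0.08 (control and high-fat diet), against -0.67 and -0.19 in wild type. The 1.89 also comes from an array that stood apart. In spleen these means were 2.77 and 2.18 in HDC-/- mice, against 1.65 and 1.43 in wild type. None of these markers was called (limma), and their part was not tested.

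Rpl39l was the gene with the largest genotype difference. It encodes a paralog of Rpl39, a small protein that lines the exit tunnel, and is known from male germ cells. On the wild-type arrays it read -4.91 and -5.02 in spleen (control and high-fat diet) and -5.57 and -6.01 in marrow. The STAT4-labelled arrays read -2.25 and -3.70 in spleen and -2.01 and -3.31 in marrow. On the STAT6-/- arrays the levels were -3.29 and -2.85 in spleen and -3.22 and -2.81 in marrow, and on the HDC-/- arrays -4.01 and -3.39 in spleen and -4.17 and -2.91 in marrow. All 4 wild-type arrays lay below all 12 others. Rpl39l was the 1 gene of 81 with this order, which 0.0522% of all features had, and 0 of 81 had the reverse order (0.0834%).

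The change of Rpl39l against wild type was 2.56 (SE 0.45, 5.89-fold, adjusted p 0.144) in STAT4-labelled, 2.34 (SE 0.45, 5.05-fold, adjusted p 0.224) in STAT6-/- and 1.76 (SE 0.45, 3.38-fold, adjusted p 0.198) in HDC-/- mice, higher in 4 of 4 pairs each time. In the STAT4-labelled pairs, which shared slides with wild type, the differences ran from 1.32 to 3.55. With genotype terms shared by both tissues, the STAT4-labelled change passed the threshold (adjusted p 0.0429, where the alternatives ran from 0.0428 to 0.806). With normexp background correction the changes shrank to 1.38, 1.13 and 0.62 in the same order. The mean of the 3 knockouts minus wild type, a contrast chosen after these values were seen, was 2.22 (SE 0.36, adjusted p 0.103), the 31st smallest p of all features, of which 18 were called (0.0626%). The gene has 1 probe, with a processed signal of 24.7 to 76.5 units on wild-type and 79.8 to 312 units on the other arrays, well above background on all 16. Rpl39 did not share the order: its wild-type values (5.30 to 5.82) overlapped the others (5.47 to 6.11).

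Rps4l leaned the same way without passing the test. It averaged -1.64 ± 0.86 in wild type, -0.87 ± 0.93 in STAT4-labelled, -0.69 ± 0.88 in STAT6-/- and -0.52 ± 0.75 in HDC-/- mice (SD, n = 4 arrays each, 2 of each tissue). The changes were 0.95 (SE 0.44, adjusted p 0.751) for STAT6-/- and 1.11 (SE 0.44, adjusted p 0.399) for HDC-/-, higher in 4 of 4 pairs in both. Of the core genes, Rpl4 read lower in HDC-/- than in wild type (-0.50, SE 0.24, adjusted p 0.491, 4 of 4 pairs) and than in STAT6-/- (-0.44, SE 0.24, adjusted p 0.849, 4 of 4 pairs), and Rpl10a higher in HDC-/- (0.40, SE 0.25, adjusted p 0.609). Against wild type, Rpl10a also read higher in STAT6-/- mice (0.44, SE 0.25, adjusted p 0.840, 3 of 4 pairs). In STAT4-labelled mice the difference of Rpl10l was 0.81 (SE 0.36, adjusted p 0.502), higher in 2 of 4 pairs, and that of Rps21 was -0.37 (SE 0.23, adjusted p 0.594), lower in 3 of 4.

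**Figure D5:**
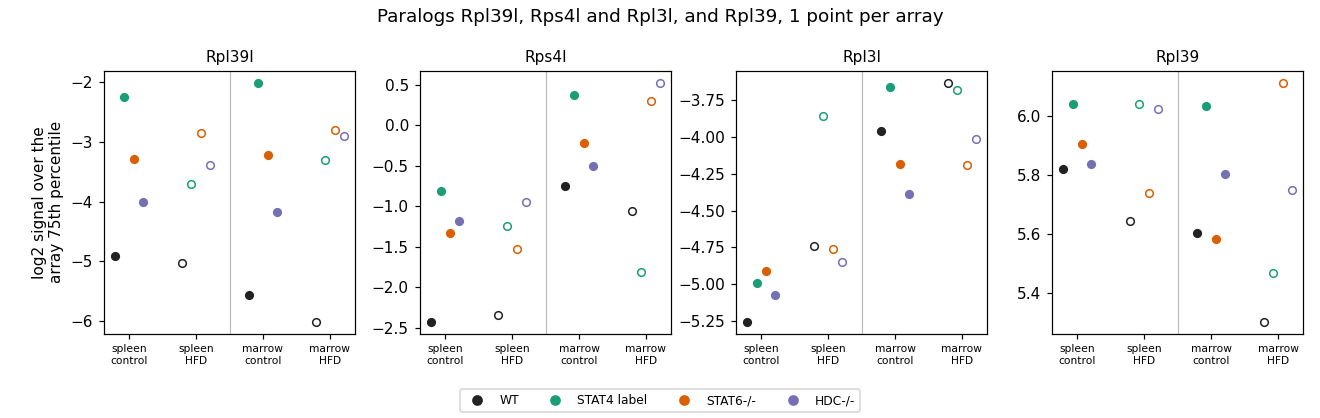
Level on each array (y axis, log2 signal over the array's 75th percentile, separate scale per panel) of Rpl39l, Rps4l and Rpl3l, and of Rpl39, by tissue and diet (x axis), with colour for genotype and open symbols for the high-fat diet. In Rpl39l the 4 wild-type arrays (black, -6.01 to -4.91) lie below all others, and in Rpl3l the spleen arrays lie below marrow except the STAT4-labelled high-fat array (-3.86).

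Outside the members, the named features whose level followed the mean of the ribosomal protein genes most closely over the 16 arrays were Tial1 (r = 0.87), Rack1 (0.82), a 40S-bound scaffold protein outside the name rule, and Smc5 (0.82). The 10 highest correlations of all (0.92 to 0.96) belonged to probes that could not be matched to a gene symbol.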

How the data were processed

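Each array is a one-colour (Cy3) scan. Spots were quantified by the authors with Agilent Feature Extraction (version 11.0.1.1, per the file headers), which gave a background-subtracted processed intensity per spot, with no scaling between arrays; no spot was saturated. Other columns of the deposited files (well-above-background and outlier flags, coded 0 or 1) served as filters. The deposited files name probes by accession: 27234 of 39429 probes (69.1%) matched a symbol of RefSeq (GRCm38.p6). The array design is on mm9, so coordinates are given for the promoter windows only.

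Log2 intensity minus each array's 75th percentile was analysed. The 305 probes flagged on any array were left out, the brightest probe stood for each gene, and features well above background on at least 2 arrays were kept (28761, of which 18644 have a symbol). Of 171 member probes, 161 were usable; 31 genes had 1 probe. Rps3 was read from a dim probe because its other one was flagged.

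limma 3.58.1 in R 4.3.3 fitted a mean per genotype and tissue and a diet term per tissue on all 16 arrays (6 residual degrees of freedom), two-sided, with Benjamini-Hochberg adjustment over all features and calls at an adjusted p under 0.05. The fit was tested on simulated data with independent noise for each feature and array, which lack the shared movement of the members. The members and gene lists were chosen with earlier results of these data known. Named genes are called members with the same direction in every pair, or else the 3 smallest p per side, plus members fixed by role, variability or paralogy; for genotype and diet the text gives some of these. Alternatives covered scaling, background correction (normexp, offset 50, on median signals in place of the planned mean signals, which were not used here), filter, probe choice, variance prior, model, a covariate from Y-linked genes, slide and arrays left out. Keeping flagged spots, the slide block and all knockouts against wild type were added after seeing the data. Figures used matplotlib. Values of single genes that are left out of the text and the plots of single genes are not reported here; counts and medians hold all 81.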

Additional observations from a re-analysis of the deposited data

Results flagged for a closer look

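Over the 8 arrays of a tissue, 8 of 164 groups (81 genes and their mean, in each tissue) held an array far from the rest, meaning that its gap to the nearest other array exceeded Dixon's 95% limit; chance alone gives about 8.2. Of the 8, 5 are given here. In spleen, Rpl21 read 4.70 and Rpl32l 4.10 on the wild-type control array, lower than all others (next 5.33 and 5.26). Rpl3l read -3.86 on the STAT4-labelled high-fat spleen array, the highest of the spleen arrays (next -4.74). In marrow, Rpl17 read 4.88 on the STAT4-labelled high-fat array, the lowest (next 5.44), and Rpl28 read 5.37 on the HDC-/- high-fat array, the highest (next 4.97).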

How the results depend on the processing

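The 10 genes called between tissues became 28 with quantile scaling, 20 with the 75th percentile taken over probes above background on all arrays, 18 with normexp, 17 with the mean of a gene's probes, 16 with a mean-variance trend and 4 with only wild-type and STAT6-/- arrays, and 4 to 10 when 1 array was left out (4 without the wild-type control marrow array). Other settings gave 7 to 13. Rps19, Rpl18 and Rpl3l were called in all 30 alternatives, Rpl19 in 29, Rps2 in 27, Rps4l in 21, Rps18 in 19, Rpl12 in 17 and Rps7 in 11, and none of the 10 changed sign. The normexp setting moved the median of all features to -0.46. The STAT4-labelled comparison went from 0 to 1 call (Rpl39l) in the additive model, with and without slide as a random block; all other diet and genotype counts stayed at 0. Ribosome biogenesis calls ran from 11 (without the STAT6-/- high-fat spleen array) to 27. A slide block could not be fitted beside genotype-by-tissue means, which already hold the slides. The causes were not tested. With 1 array per combination, signal over background and the number of arrays limit what small changes could be seen.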
